A study of Rattus norvegicus with 9 samples.

Results

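The levels of 9 genes of the pluripotency network were followed in rat pXEN cells, a stem cell type of the extraembryonic endoderm, which in the embryo contributes to the yolk sac. The genes were picked by name (Pou5f1, Lin28a, Tfcp2l1, Klf4, Sall4, Nanog, Sox2, Tcl1a and Gtsf1) with their levels in these libraries already known. Those levels are therefore given as a description, with no p-value for any single one of these genes. 8 of the 9 were read from tables of 17315 genes, and Sall4 was not analysed here. All cells were of 1 line, RX1, of the WKY rat strain, with 3 libraries from each of 3 media. CPE cells grew without serum on collagen I (10 µg/ml) in DMEM/F12 and Neurobasal with N2, B27 and β-mercaptoethanol, and received 1 µM Chir99021, an inhibitor of the kinase Gsk3. LPE cells had the same coating and base, with 10 ng/ml of the cytokine Lif and no Chir99021. T cells grew on fibronectin (100 ng/ml) in DMEM/MCDB with LA-BSA, ITS, ascorbic acid, β-mercaptoethanol, 2% fetal bovine serum, 0.5 µM of the glucocorticoid dexamethasone and 10 ng/ml Lif. Pdgf and Egf, each at 10 ng/ml, were in all 3 media. CPE and LPE thus differ in Chir99021 and Lif, and both differ from T in serum, dexamethasone, base medium and coating at once, which cannot be told apart.

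In mouse embryonic stem cells, Pou5f1 (Oct4), Sox2 and Nanog form the core of the network that keeps cells pluripotent, and Klf4, Tfcp2l1 and Sall4 help to hold the naive state, in part downstream of Lif and Stat3. Lin28a binds RNA and blocks the maturation of let-7 microRNAs. Tcl1a is a coactivator of the kinase Akt, and Gtsf1 is a zinc-finger protein of the germline pathway that silences transposons through piRNAs. In the mouse embryo, primitive endoderm parts from the pluripotent epiblast as it gains Gata6, Gata4 and Sox17 and loses Nanog and Sox2.

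Reads assigned to genes numbered 3127352 to 4418465 per CPE library, 3119049 to 3233526 per LPE library and 1698764 to 2161228 per T library. Levels are in CPM, counts per 1e6 gene reads scaled with TMM factors, and 1 count was worth 0.227 to 0.579 CPM. Values of single libraries are listed from replicate 1 to 3. The endoderm label fits the 4 markers named to check it. Gata4 averaged 927 ± 31.3 CPM in CPE, 836 ± 42.2 CPM in LPE and 903 ± 80.3 CPM in T (SD, n = 3 each, as for all means below). Gata6, Sox17 and Pdgfra were at 226 CPM or more in every library. Others of the list were low or uneven. Amn averaged 9.80 ± 2.24 CPM in CPE, 60.6 ± 18.1 CPM in LPE and 129 ± 9.97 CPM in T. Sox7 averaged 33.1 ± 7.84 CPM in CPE, 14.1 ± 16.0 CPM in LPE and 8.33 ± 1.23 CPM in T. Of the 15 endoderm markers read, all tested, 0 rose and 8 fell in CPE against LPE, 7 rose and 2 fell in LPE against T, and 7 rose and 5 fell in CPE against T, by the edgeR test described below. The shares called were 53.3%, 60% and 80% in that order, beside 17.8%, 29.7% and 32.1% of all genes tested. Within a medium the variance between 2 libraries was 11.04 to 14.2 times that of sampling in CPE, 10.9 to 17.6 times in LPE and 1.94 to 4.26 times in T. Genes with exactly 1 count numbered 33 to 92 per CPE library, 26 to 58 per LPE library and 511 to 791 per T library. LPE2 stood apart from LPE1 and LPE3 on the second principal component (-87.1 against -33.1 and -35.4). Without LPE2, the log2 differences of CPE against LPE were -0.82 for Pou5f1, -0.77 for Lin28a, -2.21 for Tfcp2l1, -0.32 for Klf4 and -5.23 for Tcl1a, to be set beside the values below. The series text names a pair of sequencer models and the sample protocols only one, and whether the media differed in sequencing run is not stated and was not tested. The labels do not state whether a medium's libraries were separate cultures, so p-values measure only the spread between libraries, which may be technical. In bulk RNA, fewer cells of a type and less RNA per cell cannot be told apart.

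The sequence upstream of the start is shown for Tfcp2l1 and Tcl1a, both highest in LPE, and for Lin28a, which was lowest in CPE. Each line holds the 250 bases before the RefSeq start in build GRCr8, 5′ to 3′ on the gene's strand (Tfcp2l1 chr13:32286393-32286642, plus strand; Tcl1a chr6:129895757-129896006, minus strand; Lin28a chr5:151527885-151528134, minus strand). Capitals mark matches, on either strand, to any of 4 motifs.
Tfcp2l1: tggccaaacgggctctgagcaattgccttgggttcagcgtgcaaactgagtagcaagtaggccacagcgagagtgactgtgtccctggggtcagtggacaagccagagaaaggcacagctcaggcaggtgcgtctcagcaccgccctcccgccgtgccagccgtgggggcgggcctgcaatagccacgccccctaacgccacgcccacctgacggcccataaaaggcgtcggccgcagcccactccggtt
Tcl1a: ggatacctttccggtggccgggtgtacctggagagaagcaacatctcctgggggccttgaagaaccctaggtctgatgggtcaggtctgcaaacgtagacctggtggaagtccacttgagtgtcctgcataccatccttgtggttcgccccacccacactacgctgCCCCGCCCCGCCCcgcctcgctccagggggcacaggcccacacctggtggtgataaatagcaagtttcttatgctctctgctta
Lin28a: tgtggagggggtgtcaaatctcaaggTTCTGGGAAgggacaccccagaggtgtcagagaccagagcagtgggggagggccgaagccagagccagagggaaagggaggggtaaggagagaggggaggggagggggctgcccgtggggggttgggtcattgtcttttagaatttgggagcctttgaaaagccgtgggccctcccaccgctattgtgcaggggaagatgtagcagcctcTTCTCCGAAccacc
The Stat-type palindrome TTCNNNGAA, held by 7.67% of 33469 such windows, lies in Lin28a as TTCTGGGAA (224 to 216 bases before the start) and as TTCTCCGAA (14 to 6 bases before it). The Sp/Klf motif GGGCGGGG (14.2% of windows) lies in Tcl1a as a pair of overlapping copies on the opposite strand, 84 to 77 and 79 to 72 bases before the start. The octamer ATGCAAAT of Pou factors (1.56% of windows) and the Tcf/Lef motif CTTTGAT (3.15% of windows) had no match in the 3 windows, and the Tfcp2l1 window had none of the 4. A match describes letters only.

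Of the 8 genes read, 6 had counts in at least 1 medium, in 3 patterns. Pou5f1 and Lin28a were read in every library and were lowest in CPE. Tfcp2l1, Tcl1a and Gtsf1 were highest in LPE, several-fold above both other media. Klf4 was lowest in T.

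Nanog and Sox2, the partners of Pou5f1 in embryonic stem cells, had 0 counts in all 9 libraries, on either strand. A count of 0 allows up to 3 counts, which is 0.681 to 0.966 CPM in CPE, 0.932 to 0.962 CPM in LPE and 1.39 to 1.74 CPM in T, covering counting error only. Reads that map to several places, 51.7% to 67.6% of all reads, entered no gene. Pou5f1 and Nanog have pseudogene copies in mouse and human, so their levels are uncertain here.

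Pou5f1 had 133, 163 and 99.2 CPM in the CPE libraries, 234, 327 and 230.1 CPM in the LPE libraries, and 232, 241 and 285 CPM in the T libraries. The CPE libraries were below all others, while LPE and T overlapped. Its mean was 132 ± 32.1 CPM in CPE, 264 ± 54.9 CPM in LPE and 253 ± 28.6 CPM in T. CPE against LPE differed by -0.999 on the log2 scale (SE 0.18) and CPE against T by -0.94 (SE 0.19). LPE against T was 0.06 (SE 0.18, approximate 95% interval -0.30 to 0.42).

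Lin28a, the let-7 inhibitor, had 238, 297 and 381 CPM in the CPE libraries, 563, 516 and 476 CPM in the LPE libraries, and 462, 435 and 482 CPM in the T libraries. Again all CPE libraries were below all others and LPE and T overlapped. The log2 difference was -0.76 (SE 0.14) for CPE against LPE, -0.59 (SE 0.14) for CPE against T and 0.17 (SE 0.14, approximate 95% interval -0.11 to 0.45) for LPE against T. Within CPE the pair parted, since CPE3 was the lowest CPE library for Pou5f1 and the highest for Lin28a. The ratio of Lin28a to Pou5f1 counts was 1.79, 1.82 and 3.84 in CPE1 to CPE3, 2.40, 1.58 and 2.07 in LPE1 to LPE3, and 1.99, 1.801 and 1.69 in T1 to T3, so CPE3 stood apart.

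Some trophoblast markers were higher in CPE, where Pou5f1 and Lin28a were lower. The 11 read summed to 69.7 to 168 CPM in CPE, 1.60 to 5.28 CPM in LPE and 1.39 to 2.73 CPM in T. Most of the CPE sum was Gata2, with 61.9, 44.3 and 131 CPM, while 6 of the 11 were at 0 in all libraries, namely Gata3, Ascl2, Hand1, Plac1, Prl3b1 and Prl3d1. Cdx2, too low to test, had 8.26, 0 and 22.5 CPM in the CPE libraries and 0 in all LPE and T libraries. Only Gata2, Elf5 and Tfap2a could be tested, and Gata2 and Elf5 rose in CPE against LPE and in CPE against T (edgeR), while in CPE against T the count of 2 was 1 without CPE1, T1, T2 or T3. The share called was 66.7% of those tested in both comparisons, beside 17.8% and 32.1% of all genes. Gata2, Elf5 and Tfap2a passed the filter on low counts only through CPE, where they were highest. The direction of their calls and this share follow from that, so nothing is read from them. CPE3, with the most Gata2, had the least Pou5f1 of the CPE libraries and the most Lin28a. Neural markers, 7 read, summed to 65.6 to 101.1 CPM in CPE, 317 to 359 CPM in LPE and 415 to 440.1 CPM in T, most of it Stmn2 in LPE and T, with Pax6 and Neurod1 at 0 in all libraries. Dcx went the other way, with 34.3 ± 14.1 CPM in CPE, 3.66 ± 3.73 CPM in LPE and 2.31 ± 0.530 CPM in T, and rose 9.25-fold (log2 3.21, SE 0.81, edgeR adjusted p = 0.012) in CPE against LPE, a call lost without CPE1 (edgeR adjusted p up to 0.068 over the 12 alternatives), and 14.7-fold (log2 3.88, SE 0.88, edgeR adjusted p = 0.0033) in CPE against T. Of the 4 neural markers tested, 1 rose and 2 fell in CPE against LPE, 1 rose and 1 fell in LPE against T, and 1 rose and 2 fell in CPE against T, and in LPE against T the count of 2 was 1 without LPE2, T1 or T2. The shares called were 75%, 50% and 75% in that order, beside 17.8%, 29.7% and 32.1% of all genes. Dcx passed the filter on low counts only through CPE, where it was highest, and the direction of its calls follows from that. The part of either marker list in these results was not tested.

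**Figure D1:**
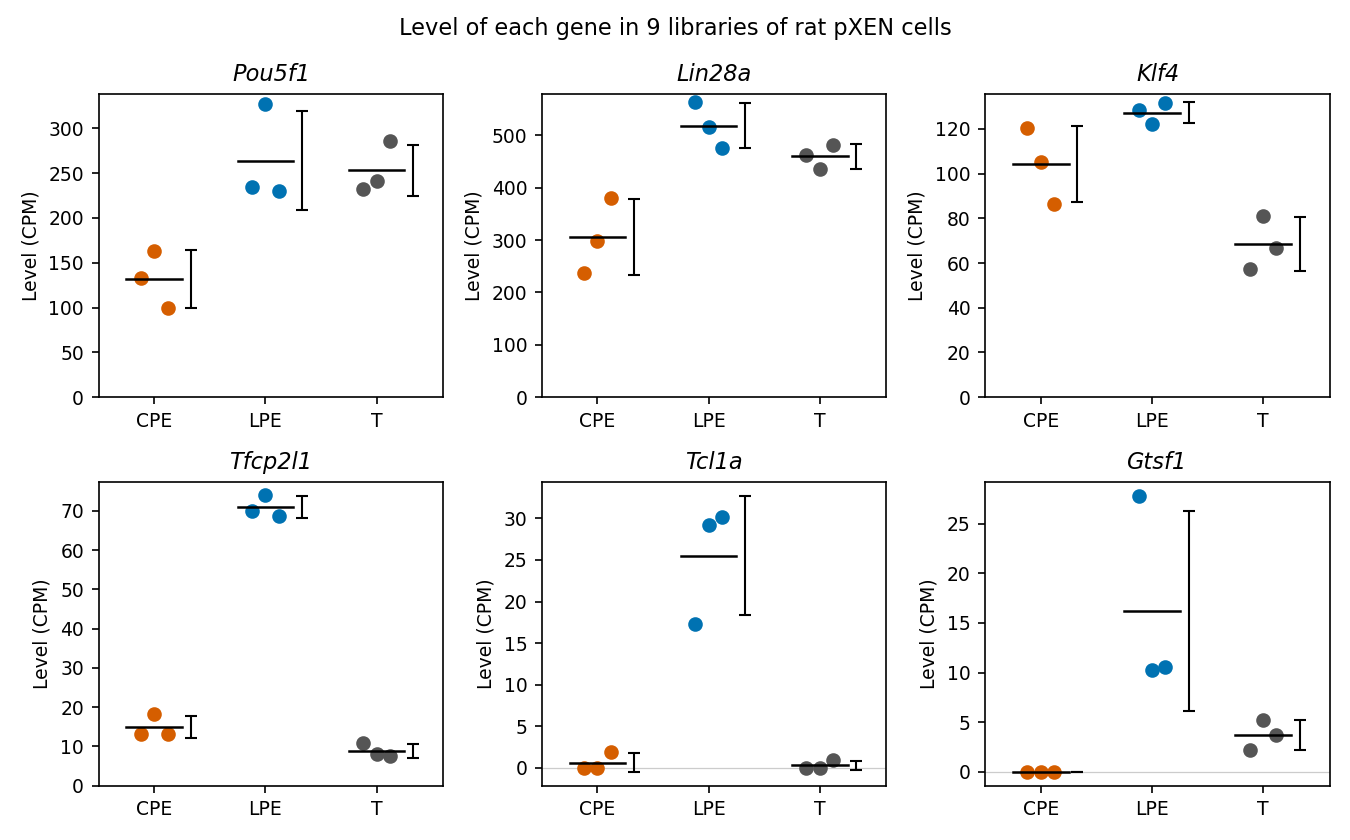
Level in CPM of 6 pluripotency genes in each library (points) of CPE, LPE and T, with the mean of 3 libraries (line) and its SD (bar). CPE is lowest for Pou5f1 and Lin28a, LPE is highest for Tfcp2l1, Tcl1a and Gtsf1, and T is lowest for Klf4.

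Tfcp2l1, a naive-state transcription factor and Stat3 target in mouse embryonic stem cells, had 13.3, 18.2 and 13.2 CPM in the CPE libraries, 70.0, 74.0 and 68.6 CPM in the LPE libraries, and 10.9, 8.11 and 7.44 CPM in the T libraries. The 3 media did not overlap, in the order LPE, CPE, T, and the lowest LPE library was 6.29 times the highest T library. CPE was 4.73-fold lower than LPE (log2 -2.24, SE 0.30), and LPE was 8.02-fold higher than T (log2 3.004, SE 0.33). CPE against T was 0.76 (SE 0.33). T medium also held Lif, at the 10 ng/ml of LPE medium.

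Klf4, a zinc-finger factor of the same network, had 121, 105.2 and 86.6 CPM in the CPE libraries, 128, 122 and 131 CPM in the LPE libraries, and 57.3, 81.1 and 67.0 CPM in the T libraries. All CPE and LPE libraries were above all T libraries, and the highest CPE library came close to the lowest LPE library. Klf4 was 1.86-fold higher in LPE than in T (log2 0.90, SE 0.19) and 1.52-fold higher in CPE against T (log2 0.61, SE 0.19). CPE against LPE was -0.29 (SE 0.18, approximate 95% interval -0.65 to 0.07). Fibroblast markers, 8 in all, summed to 0 to 6.44 CPM in CPE, 0 CPM in LPE and 1.39 to 32.4 CPM in T, with Col1a2, Dcn, Lum, Postn and Pdgfrb at 0 in all libraries and Col1a1 at 12.6, 21.4 and 0.465 CPM in T1 to T3. T2, with the most Col1a1, also had the most Klf4 of the T libraries, and the part of such cells was not tested.

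Tcl1a, the Akt coactivator gene, had counts of 0, 0 and 6 in CPE1 to CPE3, 54, 94 and 94 in LPE1 to LPE3, and 0, 0 and 2 in T1 to T3. That is 17.3, 29.2 and 30.1 CPM in LPE, against 1.93 CPM in CPE3 and 0.930 CPM in T3. All LPE libraries were above all others, and CPE and T overlapped. Over summed counts, CPE had 0.0215 times the level of LPE (95% exact interval 0.00782 to 0.0475), and LPE had 73.0 times that of T (19.99 to 606), with intervals for counting error only. Single libraries set these ratios. Without CPE3, CPE was 32.6-fold lower than LPE, and without T3, LPE was 15.1-fold higher than T. For these the empty medium was set to 3 counts per library. That covers counting error only, so these folds are not lower bounds.

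Gtsf1, the piRNA-pathway gene, had counts of 0, 0 and 0 in CPE1 to CPE3, 87, 33 and 33 in LPE1 to LPE3, and 4, 9 and 8 in T1 to T3. That is 27.8, 10.3 and 10.6 CPM in LPE and 2.18, 5.21 and 3.72 CPM in T. The media did not overlap, and LPE1 was 2.71 times the lowest LPE library. With CPE set to 3 counts per library, Gtsf1 was at least 19.2-fold lower in CPE than in LPE and at least 4.39-fold lower than in T. LPE was 4.34-fold higher than T (log2 2.12, SE 0.88). Without LPE1, CPE set in the same way was 12.3-fold lower than LPE, and the LPE mean was 2.81 times that of T. Genes with exactly 1 count were fewer in CPE and LPE than in T, as given above, and the part of this in the zeros of Gtsf1 and Tcl1a was not tested.

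**Figure D2:**
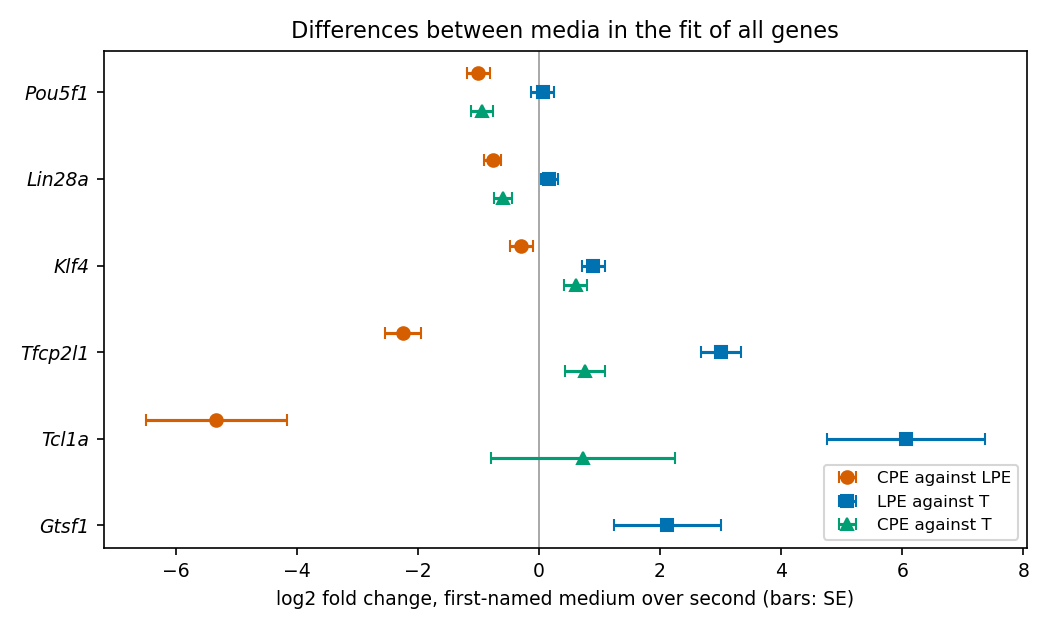
log2 fold change of 6 genes in CPE against LPE, LPE against T and CPE against T, with bars of 1 SE, from edgeR's fit of all 9 libraries. Gtsf1 is drawn only for LPE against T, because CPE had 0 counts.

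The median log2 difference over the 6 genes was -1.62 for CPE against LPE, 1.51 for LPE against T and 0.01 for CPE against T, beside 0.01, -0.03 and -0.01 over all 9130 genes tested. At an adjusted p under 0.05 in edgeR's quasi-likelihood test, 5 of the 6 were lower and 0 higher in CPE against LPE, where 17.8% of all genes were called (9.56% higher, 8.23% lower). In LPE against T, 3 were higher and 0 lower, where 29.7% of all genes were called (15% higher, 14.7% lower). In CPE against T, 1 was higher and 3 lower, where 32.1% were called (16.8% higher, 15.3% lower). Media did not overlap for 6, 4 and 5 of the 6 genes in that order, beside 31.3%, 47.3% and 54.4% of all genes. The same levels picked the genes, so nothing is read from these counts, and the comparisons share libraries. Tcl1a and Gtsf1 passed the filter on low counts only through LPE, where they were highest. Their part in these medians and counts follows from that.

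Among pairs of the 6, Pearson's r of log2 CPM over the 9 libraries was highest for Tfcp2l1 and Tcl1a (0.91), then for Lin28a and Gtsf1 (0.86), and lowest for Lin28a and Klf4 (-0.12). The 3 genes most like each member were then taken from 7333 or 7334 others with a mean of at least 10 CPM. Those most like Pou5f1 were Cebpg, a bZIP transcription factor (r = 0.976), Spry1, an inhibitor of receptor tyrosine kinase signalling (r = 0.972), and Galnt2, a glycosyltransferase (r = 0.971). Cebpg averaged 17.1 ± 5.29 CPM in CPE, 40.9 ± 8.22 CPM in LPE and 40.5 ± 4.02 CPM in T, in the order of Pou5f1. Those most like Lin28a were the nuclear import receptor gene Tnpo1 (r = 0.985), the RNA helicase gene Ddx21 (r = 0.978) and the cytidine deaminase gene Apobec3b (r = 0.965).

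Those most like Tfcp2l1 were the ubiquitin ligase gene Trip12 (r = 0.990), the RNA-binding protein gene Hdlbp (r = 0.977) and Tjap1 (r = 0.974). Those most like Tcl1a were Plekhb2 (r = 0.977), the LIM-domain gene Ajuba (r = 0.972) and Dnmt3l (r = 0.965), a cofactor of the de novo DNA methyltransferases. Dnmt3l averaged 94.8 ± 18.3 CPM in CPE, 909 ± 69.0 CPM in LPE and 135 ± 29.97 CPM in T, far above the rest in LPE. For Klf4 they were Fam168b (r = 0.972), the catalase gene Cat (r = 0.967) and the chaperone gene Calr (r = 0.966), and for Gtsf1 they included Elmo3 (r = 0.969) and the chaperone gene Hspa5 (r = 0.967). These describe 9 libraries of 1 line in 3 media.

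Genes related to these factors, or that mark other cell types, were counted from lists of 183 genes, of which 152 were read and 93 tested. Of the 93, 34 were called in CPE against LPE (11 higher, 23 lower), 40 in LPE against T (31 higher, 9 lower) and 44 in CPE against T (27 higher, 17 lower), beside the 17.8%, 29.7% and 32.1% of all genes. Without T2, 25 were called in LPE against T. The lists were chosen with earlier results of these data known, so no enrichment is read from these counts.

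Other naive pluripotency factors that were called were all higher in LPE than in T. Of 14 read, Nr0b1 and Fgf4 were at 0 in all libraries, 6 were too low to test and 6 were tested. Zscan10, a zinc-finger factor of embryonic stem cells, had 109.7, 65.2 and 55.7 CPM in the CPE libraries, 197, 219 and 201 CPM in the LPE libraries, and 64.9, 62.0 and 64.6 CPM in the T libraries. All LPE libraries were above all others, as for Tfcp2l1. It fell 2.67-fold (log2 -1.42, SE 0.21, edgeR adjusted p = 0.00027) in CPE against LPE and rose 3.22-fold (log2 1.69, SE 0.22, edgeR adjusted p = 4.0e-05) in LPE against T. Tbx3, a T-box factor that acts downstream of Lif in the mouse, averaged 21.0 ± 8.96 CPM in CPE, 68.2 ± 21.3 CPM in LPE and 27.9 ± 8.44 CPM in T, and fell 3.23-fold (log2 -1.69, SE 0.37, edgeR adjusted p = 0.0044) in CPE against LPE.

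Klf5, a relative of Klf4, averaged 507 ± 112 CPM in CPE, 752 ± 33.8 CPM in LPE and 212 ± 22.5 CPM in T. It rose 3.54-fold (log2 1.82, SE 0.15, edgeR adjusted p = 3.1e-07) in LPE against T and 2.39-fold (log2 1.26, SE 0.14, edgeR adjusted p = 8.4e-06) in CPE against T. Trim28, a corepressor that silences retroviruses, averaged 1422 ± 94.2 CPM in CPE, 1239 ± 72.3 CPM in LPE and 655 ± 11.5 CPM in T and rose 2.17-fold (log2 1.12, SE 0.09, edgeR adjusted p = 2.4e-07) in CPE against T. Of the 6 tested, 0 rose and 3 fell in CPE against LPE, 4 rose and 0 fell in LPE against T, and 2 rose and 0 fell in CPE against T, with medians on the log2 scale of -0.78 for CPE against LPE, 1.75 for LPE against T and 1.19 for CPE against T. The shares called were 50%, 66.7% and 33.3% in that order, beside 17.8%, 29.7% and 32.1% of all genes. The count of 4 in LPE against T was 3 without LPE2, T2 or T3. Esrrb, a core naive factor of the mouse, had 0, 2.27 and 6.76 CPM in the CPE libraries, 0, 0 and 0 CPM in the LPE libraries, and 0.546, 0 and 0.465 CPM in the T libraries, too low to test.

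Of 13 epiblast and primed-state genes read, 6 were at 0 in all libraries (Otx2, Fgf5, brachyury, Mixl1, Lefty1 and Lefty2), 3 were too low and 4 were tested. Dnmt3b, a de novo DNA methyltransferase gene, had 41.0, 43.8 and 48.0 CPM in the CPE libraries, 197, 223 and 202 CPM in the LPE libraries, and 187, 129.7 and 148 CPM in the T libraries. CPE was below both other media, as for Pou5f1, and Dnmt3b fell 4.68-fold (log2 -2.23, SE 0.17, edgeR adjusted p = 3.1e-07) in CPE against LPE and 3.50-fold (log2 -1.81, SE 0.17, edgeR adjusted p = 1.6e-06) in CPE against T. Of the 4, 0 rose and 1 fell in CPE against LPE, 0 rose and 0 fell in LPE against T, and 0 rose and 1 fell in CPE against T. The shares called were 25%, 0% and 25% in that order, beside 17.8%, 29.7% and 32.1% of all genes. Median log2 differences were -0.82 for CPE against LPE, 0.14 for LPE against T and -0.75 for CPE against T. In LPE against T, DESeq2 also called 0, and 1 had an unadjusted edgeR p under 0.05. The counts were 2 without LPE2 in CPE against LPE, 1 without T1 in LPE against T and 2 without CPE3 in CPE against T.

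Genes around Lin28a and let-7 moved in both directions. Hmga2, a chromatin gene, averaged 37.3 ± 12.6 CPM in CPE, 18.0 ± 7.62 CPM in LPE and 6.86 ± 1.63 CPM in T. It rose 5.42-fold (log2 2.44, SE 0.48, edgeR adjusted p = 0.001) in CPE against T. Its relative Hmga1 averaged 63.2 ± 13.9 CPM in CPE, 146 ± 17.6 CPM in LPE and 208 ± 16.0 CPM in T, and fell 2.32-fold (log2 -1.21, SE 0.18, edgeR adjusted p = 0.00022) in CPE against LPE and 3.31-fold (log2 -1.73, SE 0.18, edgeR adjusted p = 3.6e-06) in CPE against T. Igf2bp2, an RNA-binding protein gene, averaged 189 ± 25.3 CPM in CPE, 88.1 ± 6.21 CPM in LPE and 36.7 ± 8.203 CPM in T. It rose 2.15-fold (log2 1.10, SE 0.18, edgeR adjusted p = 0.00064) in CPE against LPE, 2.40-fold (log2 1.26, SE 0.20, edgeR adjusted p = 0.00021) in LPE against T and 5.15-fold (log2 2.36, SE 0.20, edgeR adjusted p = 5.0e-07) in CPE against T. Its relative Igf2bp1 averaged 413 ± 23.0 CPM in CPE, 681 ± 64.5 CPM in LPE and 467 ± 13.4 CPM in T, highest in LPE. It fell 1.65-fold (log2 -0.72, SE 0.10, edgeR adjusted p = 0.00015) in CPE against LPE and rose 1.46-fold (log2 0.55, SE 0.10, edgeR adjusted p = 0.00088) in LPE against T, and was not called in CPE against T (log2 -0.18, edgeR adjusted p = 0.21).

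Mycn, a proto-oncogene of early embryos, averaged 78.1 ± 17.8 CPM in CPE, 127 ± 18.9 CPM in LPE and 188 ± 16.8 CPM in T and fell 2.41-fold (log2 -1.27, SE 0.19, edgeR adjusted p = 0.0001) in CPE against T. Trim71 averaged 18.8 ± 5.61 CPM in CPE, 41.6 ± 10.2 CPM in LPE and 33.1 ± 7.48 CPM in T. Its fall in CPE against LPE (edgeR adjusted p = 0.027, 0.018 to 0.11 over the 12 alternatives) was lost without CPE2, CPE3 or LPE1, or with the 6 libraries alone. Of the 12 tested, 1 rose and 4 fell in CPE against LPE, 4 rose and 2 fell in LPE against T, and 4 rose and 2 fell in CPE against T. The shares called were 41.7%, 50% and 50% in that order, beside 17.8%, 29.7% and 32.1% of all genes. Median log2 differences were -0.15 for CPE against LPE, 0.55 for LPE against T and 0.16 for CPE against T. The count of 5 in CPE against LPE was 3 without CPE2 or LPE1, and that of 6 in LPE against T was 3 without LPE3 and 2 without T1, T2 or T3.

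**Figure D3:**
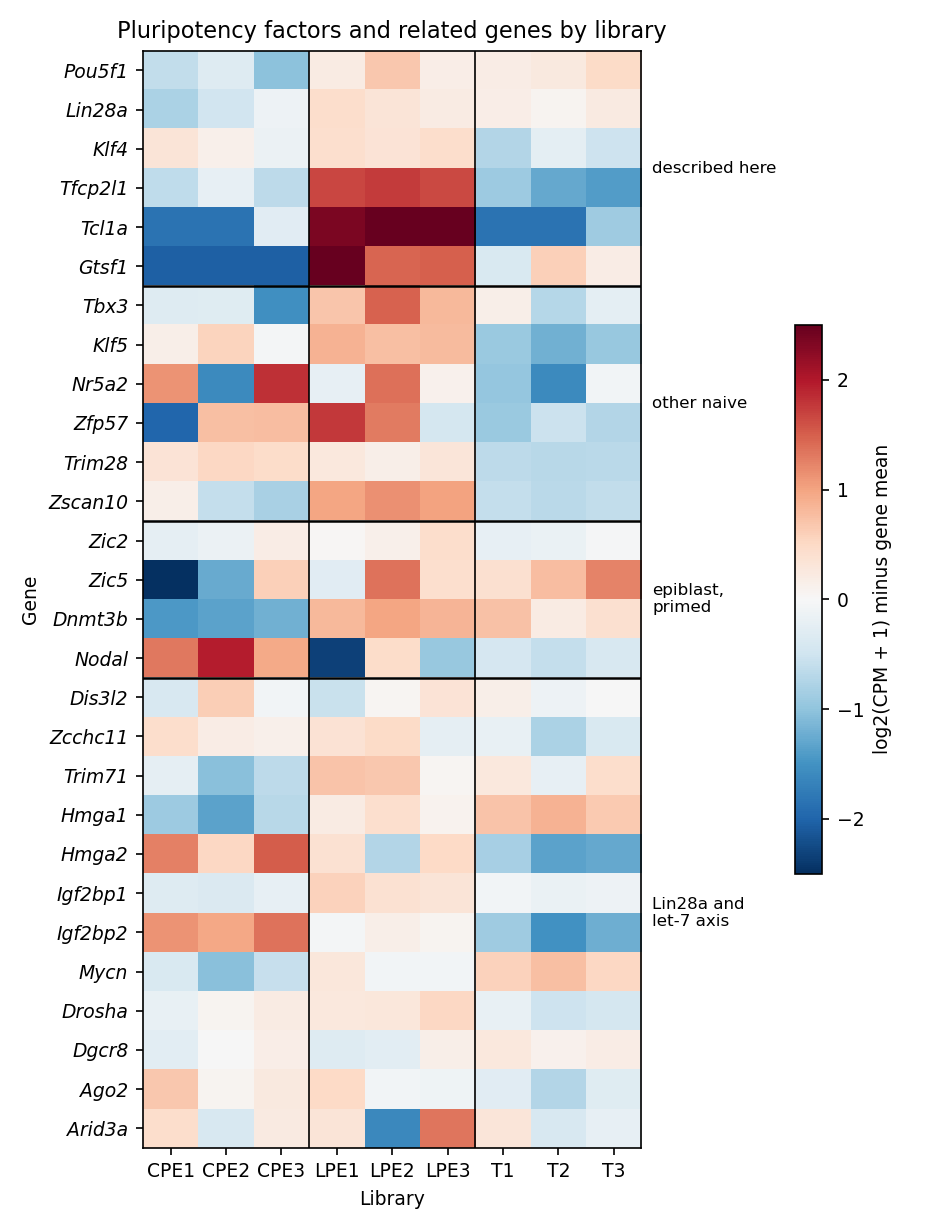
log2(CPM + 1) minus the mean of each gene over the 9 libraries, for the 6 pluripotency genes read and tested genes of related lists, with colours that saturate at 2.5. Tfcp2l1, Tcl1a, Tbx3 and Zscan10 are high in the LPE libraries, and Dnmt3b and Hmga1 are low in the CPE libraries.

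Of 12 tested genes of the Sall family and of NuRD, the remodelling complex that Sall factors recruit, 3 (25%) were called in CPE against LPE, 4 (33.3%) in LPE against T and 5 (41.7%) in CPE against T, beside 17.8%, 29.7% and 32.1% of all genes. Rbbp7, a histone-binding subunit, had 2614, 1877 and 3406 CPM in the CPE libraries, 528, 363 and 511 CPM in the LPE libraries, and 678, 850.1 and 724 CPM in the T libraries. All CPE libraries were above all others, and it rose 5.63-fold (log2 2.49, SE 0.19, edgeR adjusted p = 2.3e-07) in CPE against LPE and 3.51-fold (log2 1.81, SE 0.18, edgeR adjusted p = 2.6e-06) in CPE against T. The methyl-DNA-binding gene Mbd2 averaged 110.0 ± 12.5 CPM in CPE, 61.7 ± 10.03 CPM in LPE and 42.7 ± 1.13 CPM in T and rose 2.58-fold (log2 1.37, SE 0.21, edgeR adjusted p = 0.00013) in CPE against T, while its relative Mbd3 fell 1.56-fold (log2 -0.64, SE 0.13, edgeR adjusted p = 0.0016) in LPE against T. Sall1 averaged 36.3 ± 10.5 CPM in CPE, 39.9 ± 9.10 CPM in LPE and 25.7 ± 8.39 CPM in T, Sall2 averaged 9.32 ± 5.01 CPM in CPE, 22.5 ± 3.66 CPM in LPE and 15.9 ± 4.0003 CPM in T, and neither was called. By direction, 2 rose and 1 fell in CPE against LPE, 2 rose and 2 fell in LPE against T, and 2 rose and 3 fell in CPE against T. Their medians were -0.19 for CPE against LPE, -0.17 for LPE against T and -0.41 for CPE against T. The count of 4 in LPE against T was 2 without T2.

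Among relatives by family of Pou5f1, Sox2, Klf4 and Tfcp2l1, 2 rose and 3 fell in CPE against LPE, 5 rose and 0 fell in LPE against T, and 7 rose and 3 fell in CPE against T, of 18 tested. The shares called were 27.8%, 27.8% and 55.6% in that order, beside 17.8%, 29.7% and 32.1% of all genes. The median log2 difference was 0.02 for CPE against LPE, 0.57 for LPE against T and 0.44 for CPE against T. Grhl2, a grainyhead factor of epithelia from the superfamily of Tfcp2l1, averaged 61.8 ± 13.9 CPM in CPE, 5.23 ± 4.55 CPM in LPE and 3.45 ± 1.60 CPM in T. It rose 11.8-fold (log2 3.56, SE 0.69, edgeR adjusted p = 0.0021) in CPE against LPE, where Tfcp2l1 was lower, and 17.6-fold (log2 4.14, SE 0.75, edgeR adjusted p = 0.00059) in CPE against T. Klf10, a gene induced by Tgf-beta, averaged 87.4 ± 18.3 CPM in CPE, 57.0 ± 19.0 CPM in LPE and 10.8 ± 4.33 CPM in T and rose 5.21-fold (log2 2.38, SE 0.36, edgeR adjusted p = 0.00013) in LPE against T and 7.998-fold (log2 2.9997, SE 0.36, edgeR adjusted p = 1.3e-05) in CPE against T. Sox13 averaged 31.0 ± 2.86 CPM in CPE, 80.2 ± 16.4 CPM in LPE and 86.6 ± 13.8 CPM in T and fell 2.58-fold (log2 -1.37, SE 0.23, edgeR adjusted p = 0.00059) in CPE against LPE. Pou2f1 (Oct1), a broadly expressed relative of Pou5f1, averaged 34.9 ± 14.1 CPM in CPE, 48.1 ± 4.57 CPM in LPE and 16.4 ± 2.58 CPM in T and rose 2.91-fold (log2 1.54, SE 0.34, edgeR adjusted p = 0.0029) in LPE against T. The count of 5 in LPE against T was 3 without T2, and that of 10 in CPE against T was 6 without T1 or T2.

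Of 17 tested genes of the Akt pathway, on which Tcl1a acts, 2 rose and 2 fell in CPE against LPE, 7 rose and 2 fell in LPE against T, and 2 rose and 2 fell in CPE against T. Their median log2 differences were -0.25 for CPE against LPE, 0.03 for LPE against T and 0.19 for CPE against T. The shares called were 23.5%, 52.9% and 23.5% in that order, beside 17.8%, 29.7% and 32.1% of all genes. Foxo1, a factor that Akt keeps out of the nucleus, averaged 47.3 ± 10.7 CPM in CPE, 94.8 ± 16.9 CPM in LPE and 41.6 ± 5.505 CPM in T, highest in LPE as Tcl1a was, and fell 1.998-fold (log2 -0.999, SE 0.24, edgeR adjusted p = 0.0081) in CPE against LPE. Foxo3, of the same family, rose 2.53-fold (log2 1.34, SE 0.28, edgeR adjusted p = 0.0019) in LPE against T. Gsk3a, which encodes an Akt substrate and a target of Chir99021, averaged 88.6 ± 23.5 CPM in CPE, 61.1 ± 11.3 CPM in LPE and 162 ± 33.01 CPM in T and fell 2.65-fold (log2 -1.41, SE 0.23, edgeR adjusted p = 0.0003) in LPE against T. Gsk3b, its relative, rose 2.36-fold (log2 1.24, SE 0.22, edgeR adjusted p = 0.00045) in CPE against T. In CPE against LPE the count of 4 was 2 without CPE2, LPE1 or LPE2 and 1 without CPE3. In LPE against T the count of 9 was 5 without T2 and 4 without T3, and in CPE against T that of 4 was 2 without T1, T2 or T3.

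The piRNA and germline genes listed beside Gtsf1 were mostly low. Of 18 read, Piwil1, Tdrd5, Tdrd6 and Nanos3 were at 0 in all libraries, 10 were too low and 4 were tested, of which 1 rose and 0 fell in CPE against LPE, 1 rose and 0 fell in LPE against T, and 1 rose and 0 fell in CPE against T. The share called was 25% in each comparison, beside 17.8%, 29.7% and 32.1% of all genes in that order. The medians were 0.20 for CPE against LPE, 0.51 for LPE against T and 0.99 for CPE against T. Each call was lost on leaving out any of several libraries. Tex19.1, a germ cell and placenta gene, averaged 20.9 ± 4.25 CPM in CPE, 2.93 ± 2.81 CPM in LPE and 6.41 ± 1.57 CPM in T, and its rise in CPE against LPE (edgeR adjusted p = 0.034, 0.0035 to 0.11 over the 12 alternatives) was lost without CPE2, CPE3 or LPE3, or with the 6 libraries alone. Piwil2, an Argonaute that binds piRNAs, averaged 35.4 ± 8.05 CPM in CPE, 24.6 ± 12.2 CPM in LPE and 15.7 ± 5.08 CPM in T, and its rise in CPE against T (edgeR adjusted p = 0.04, 0.01 to 0.16 over the 12 alternatives) was lost without CPE1, CPE2, T1 or T3. That of Tdrd7, a Tudor-domain gene, in LPE against T (edgeR adjusted p = 0.045, 0.041 to 0.19 over the 12 alternatives) was lost without LPE2, LPE3, T1, T2 or T3, without the filter, or with a replicate block.

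**Figure D4:**
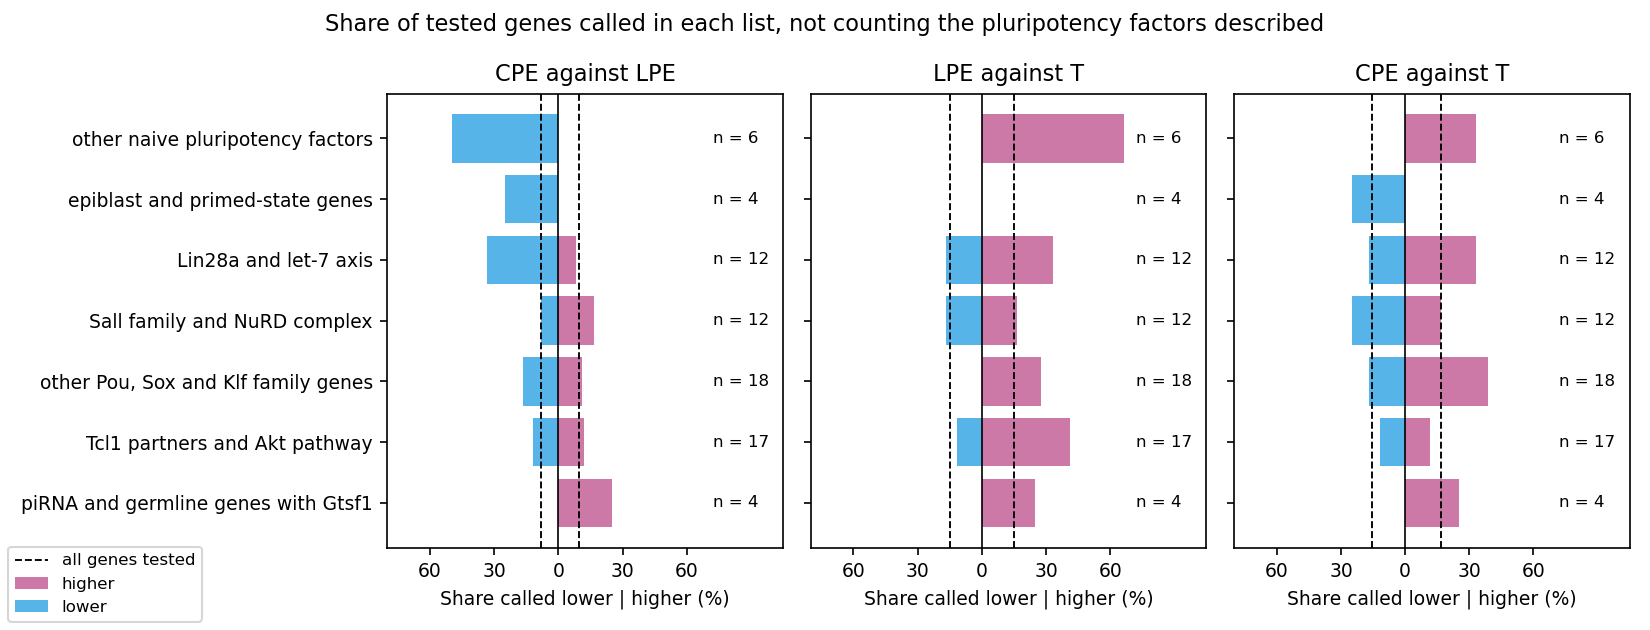
Percentage of the tested genes of each list called lower (left) or higher (right) by edgeR in CPE against LPE, LPE against T and CPE against T, with dashed lines at the percentages over all genes tested. Other naive pluripotency factors have 3 of 6 lower in CPE against LPE and 4 of 6 higher in LPE against T. The count of 4 was 3 without LPE2, T2 or T3.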

How the data were processed

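RNA of 9 libraries of rat pXEN cells was sequenced after ribosomal RNA removal with a directional kit, per the labels' protocols. CASAVA 1.8.2, Trimmomatic 0.33, STAR 2.5.1 and DESeq2 were used on build rn6, per the submitters' processing notes. Which gene annotation was used is not stated. The deposited tables hold the authors' raw read counts per gene. Column 4, the gene strand, was used (the other strand held 0.822% to 0.986% of stranded reads), without the 4 summary lines.

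With edgeR 4.0.16 (R 4.3.3), quasi-likelihood tests were run on a fit of the 9 libraries with TMM factors, and p-values were adjusted by Benjamini-Hochberg. filterByExpr (minimum count 10, minimum total 15) kept 9130 of 17315 genes, and 5395 had 0 counts throughout. SE is the log2 fold change over the square root of F, and approximate intervals span about 2 SE to each side. Correlations used log2 CPM with a prior count of 2. The test was tried on simulated data. Genes and lists were chosen with earlier results of these data known. Named were, per list and comparison, genes from the 2 called with the largest rise and the 2 with the largest fall (at least 5 CPM), the 3 most alike per member (1 of them is not reported here), and 4 endoderm markers. Igf2bp1, Esrrb, Sall1, Sall2 and the genes at 0 were chosen after their values were seen. The Akt list holds Pdk1, the symbol of a pyruvate dehydrogenase kinase. Upstream sequences are RefSeq's for GRCr8, not the build of the counts, and were found for 7 of the 9 genes, with 2 windows inside a gene left out. Alternatives were DESeq2 1.42.0, relative log expression factors, no filter, either-strand counts, the 6 libraries compared alone, a replicate block, and leaving out each library.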

Additional observations from a re-analysis of the deposited data

How the results depend on the processing

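With each library left out, the listed genes called numbered 29 to 36 in CPE against LPE, 25 to 39 in LPE against T and 34 to 45 in CPE against T, and all genes called 1298 to 1758, 1896 to 2704 and 2083 to 2584. With the 6 libraries of CPE and LPE fitted alone, fewer were called in CPE against LPE. These were 27 listed genes and 1103 of all genes, against 34 and 1624 in the fit of 9 libraries. The fit of 9 libraries shares the spread of each gene across all media, and T libraries varied less, as given above. Its SE and p-values for CPE against LPE may therefore be too small, which was not tested. The one count of either kind that moved by over 1.5 times, under any alternative run, was 25 listed genes in LPE against T without T replicate 2, against 40, and the cause was not tested. DESeq2 called 37 in CPE against LPE, 41 in LPE against T and 48 in CPE against T of the listed genes. Of the fold changes of the 6 genes under the alternatives, 207 moved by less than the spread between replicates and 7 by more, 6 of them of Tcl1a and 1 of Gtsf1, both of low counts. For Tcl1a in CPE against T, log2 0.73, the value was -3.15 without CPE replicate 3 and 3.93 without T replicate 3. Same-numbered libraries did not deviate together over all genes tested (r -0.0266 to 0.0118). Such an r cannot show a batch that acts on few genes, and whether they shared a culture day or run was not tested. With a replicate block, 34 in CPE against LPE, 40 in LPE against T and 41 in CPE against T of the listed genes were called, and 1500 in CPE against LPE, 2558 in LPE against T and 2751 in CPE against T of all genes, and Tcl1a was -6.18 in CPE against LPE and 6.82 in LPE against T. Nanog, Sox2, Tcl1a and Gtsf1 had at most 94 counts in a library, so depth limits their values.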
